A study of Mus musculus with 2 samples.

Results

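Nuclear genes of oxidative phosphorylation were followed through the chromatin contacts of mouse liver. Members were all protein-coding genes on the 19 autosomes whose symbol starts with Ndufa, Ndufb, Ndufc, Ndufs, Ndufv, Sdh, Uqcr, Cox4i, Cox5, Cox6, Cox7, Cox8 or Atp5. These were 97 of 20665 autosomal protein-coding genes, and they covered 128 bins of 50 kb. Complex I contributed 39 genes, complex II 4, complex III 8, complex IV 17 and ATP synthase 17, and a further 12 were assembly factors (Ndufaf and Sdhaf). Of the members, 69 lay inside 1 bin, 25 spanned 2 bins and 3 spanned 3. No pair of members shared a bin, but a median of 2 other protein-coding genes overlapped the bins of a member, so a value below belongs to the bin and not to the gene alone.

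Foxa2 HiChIP, in which ligated chromatin contacts are pulled down with an antibody, was done on liver of wildtype mice that had received 1 oral gavage 4 h earlier. The vehicle group received a mixture of propylene glycol and Tween 80, and the other group received GW4064, an agonist of the bile acid receptor FXR, in that vehicle. Both groups carry the wildtype genotype, the antiserum was the same, and strain, sex, age and the number of animals per library were not given in the sources used here. Each group is 1 library, with 22686004 contacts in vehicle and 29003442 in GW4064, so a difference between treatments and a difference between libraries cannot be told apart, and no test of the treatment was possible.

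Oxidative phosphorylation passes electrons from NADH and succinate through complexes I to IV in the inner mitochondrial membrane, and the proton gradient this builds drives ATP synthase. Most subunits are encoded in the nucleus and scattered over the chromosomes, while a core set is encoded by mitochondrial DNA. In hepatocytes, which are rich in mitochondria, the pathway powers gluconeogenesis and urea synthesis. Transcription of the nuclear genes is known to depend on NRF1, on the ETS factor GABP and on YY1, with the coactivator PGC-1 alpha acting upstream.

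The 3 loci with the lowest ratio of local contacts, the locus with the highest, and 1 locus whose promoter faces the gene of a known regulator are shown first by their promoters. These come from RefSeq on GRCm38.p6, cover 250 bases before to 50 bases after the start site, and are written 5′ to 3′ on the strand of the gene. Atp5d (chr10:80142025-80142324, plus strand) encodes the delta subunit of the ATP synthase central stalk, and its capitals mark TGTTTGC, a forkhead form, read on the opposite strand. Ndufs7 (chr10:80249199-80249498, plus strand) encodes an iron-sulfur subunit of complex I, and its capitals mark the long YY1 form, which begins AAGATGGC. Uqcr11 (chr10:80406772-80407071, minus strand) encodes a small subunit of complex III, and its capitals mark the ETS letters CCGGAAG. Ndufaf4 (chr4:24897833-24898132, plus strand) encodes a complex I assembly factor, and its capitals mark the NRF1 palindrome. Atp5j (chr16:84834927-84835226, minus strand) encodes coupling factor 6 of the ATP synthase stalk, and its capitals mark AAGATGGC and CCGGAAG. The promoters of Cox7c and Ndufa4, the next highest loci, held none of the searched motifs and are not shown. For Atp5j the window with the most NRF1, ETS and YY1 forms was taken. The promoters shown are therefore not a fair sample of the members. A match is a description of letters and does not show that a factor binds.
Atp5d: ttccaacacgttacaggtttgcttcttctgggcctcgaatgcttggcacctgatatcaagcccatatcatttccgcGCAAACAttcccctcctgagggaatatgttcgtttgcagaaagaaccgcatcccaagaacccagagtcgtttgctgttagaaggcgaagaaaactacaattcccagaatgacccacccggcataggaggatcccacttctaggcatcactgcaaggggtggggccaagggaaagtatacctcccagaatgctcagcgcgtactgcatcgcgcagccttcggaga
Ndufs7: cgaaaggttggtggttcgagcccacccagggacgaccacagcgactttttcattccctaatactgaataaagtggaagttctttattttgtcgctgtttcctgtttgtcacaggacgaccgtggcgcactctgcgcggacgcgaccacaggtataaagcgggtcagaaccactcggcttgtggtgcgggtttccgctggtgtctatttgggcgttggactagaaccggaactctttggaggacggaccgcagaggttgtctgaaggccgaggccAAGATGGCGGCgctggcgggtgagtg
Uqcr11: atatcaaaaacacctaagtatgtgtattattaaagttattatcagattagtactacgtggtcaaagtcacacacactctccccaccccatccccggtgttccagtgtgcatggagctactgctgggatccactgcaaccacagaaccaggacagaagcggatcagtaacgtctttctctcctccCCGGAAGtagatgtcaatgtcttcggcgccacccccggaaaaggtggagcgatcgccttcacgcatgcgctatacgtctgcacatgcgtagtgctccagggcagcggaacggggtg
Ndufaf4: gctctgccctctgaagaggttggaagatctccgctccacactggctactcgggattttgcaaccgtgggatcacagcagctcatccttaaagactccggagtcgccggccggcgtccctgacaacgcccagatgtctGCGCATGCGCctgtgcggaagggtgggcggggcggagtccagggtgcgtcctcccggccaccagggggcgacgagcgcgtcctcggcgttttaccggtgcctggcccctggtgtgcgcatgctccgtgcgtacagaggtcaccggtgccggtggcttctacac
Atp5j: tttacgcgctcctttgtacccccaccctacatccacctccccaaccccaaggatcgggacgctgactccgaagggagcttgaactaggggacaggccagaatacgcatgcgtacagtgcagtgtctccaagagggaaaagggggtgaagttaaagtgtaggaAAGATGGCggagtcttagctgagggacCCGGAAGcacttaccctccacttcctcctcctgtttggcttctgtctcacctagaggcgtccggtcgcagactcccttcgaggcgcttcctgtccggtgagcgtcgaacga

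Promoters of the members held the letters of the 3 known regulators more often than promoters at large. RefSeq windows were found for 79 of the 97 members, as 84 promoters, and all protein-coding genes gave 21263. The NRF1 palindrome, in capitals in the Ndufaf4 promoter, was in 8.33% of member promoters and 1.33% of all, and in 26.2% and 6.38% when its sixth base was left open, a search that includes the palindrome. The ETS letters CCGGAAG were in 26.2% of member promoters and 11.6% of all. For YY1, AAGATGGC was in 13.1% and 3.05%, and the longer form in capitals in the Ndufs7 promoter, which contains it, in 5.95% and 0.889%. At least 1 of the open NRF1 form, CCGGAAG and AAGATGGC was in 56.0% of member promoters and in 18.9% of all promoters.

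Forkhead letters, which Foxa2 can read, were not more frequent in members. TGTTTAC was in 2.38% of member promoters and 3.01% of all, and TGTTTGC in 3.57% and 4.58%. The inverted repeat with 1 base between its arms that FXR is known to read was in 0 of 84 member promoters and in 1 of all 21263. All motifs were searched on both strands. Base composition also differed, with a median GC content of 58.7% in member promoters and 56.3% in all, and a median of 20 against 13 CpG pairs, and its part in the motif counts was not tested. A divergent start site of another protein-coding gene lay within 1000 bases for 23 of 79 members (29.1%) and for 8.48% of all genes. Examples are Atp5j with Gabpa, which encodes the DNA-binding part of GABP, Sdhd with Timm8b, and Ndufa7 with Rps28, a ribosomal protein gene.

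**Figure D1:**
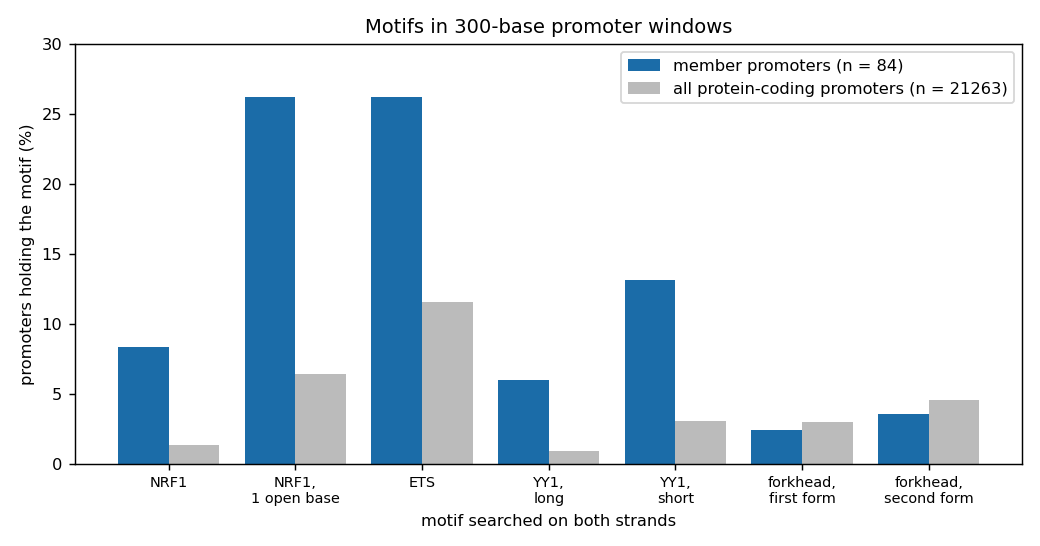
Share of promoters (%) holding each motif, for 84 member promoters (blue) and 21263 promoters of all protein-coding genes (grey). The NRF1, ETS and YY1 bars are higher for members, with ETS at 26.2% against 11.6%, while both forkhead bars are slightly lower.

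The labelled tissue was checked on the contacts themselves. Bins of 12 hepatocyte genes had a median of 1.11 times the same-bin contacts of the median bin in vehicle (range 0.885 to 1.70), against 0.845 (0.655 to 1.27) for 12 genes not expressed in liver, and the values in GW4064 were 0.976 and 0.664. The ranges overlap, and the lists were not matched on the number of genes around each locus. Actc1, not expressed in liver, had 1.27 in vehicle with 8 genes around it, and the hepatocyte gene Hnf4a 0.934 with 20. The part of gene density in the contrast was not tested, so bins of 50 kb identify the tissue weakly at best. Members lay near the typical gene bin. Their median was 747 contacts per bin in vehicle and 801 in GW4064, beside 756 and 858 over all protein-coding loci and 805 and 1019 for the median autosomal bin. In vehicle the lowest member was Sdhaf1 with 457 contacts per bin, and the highest was Ndufc1 with 1001.

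Local contacts, meaning contacts of the bins of a gene with different bins no more than 1 Mb away, were lower in GW4064 than in vehicle at more members than at loci in general. The log2 ratio was scaled to equal totals of local contacts and carries an exact conditional binomial 95% interval, which covers counting error only. A call needed a difference of 1.5-fold or more and an interval that excluded equality, and 95 of the 97 members had the minimum of 200 local contacts over both libraries. Of these 95, 15 (15.8%) were called lower, beside 9.3% of 16264 protein-coding loci, and 0 were called higher, beside 0.0615%. The median log2 ratio was -0.25 in members and -0.16 in all loci, and the summed contacts of members, 23456 in vehicle and 28538 in GW4064, gave -0.23 (-0.25 to -0.20). By the interval alone 48 members were lower and 3 higher, beside 40% and 5.53% of all loci, and with a limit of a 25% difference 41 were lower, beside 29.3%.

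The scaling sets where 0 lies. Scaled to equal totals of all contacts, every log2 ratio of local contacts is higher by 0.155, 6 members (6.32%) are called lower, beside 3.22% of all loci, and the member median is -0.10. With a minimum of 400 local contacts the order turns, since 3 of 64 members (4.69%) are called lower, beside 6.23% of loci with that many. The 2 members under the minimum were Sdhb, the iron-sulfur subunit of complex II, with 97 contacts in each library, and Ndufb4c, with 68 in vehicle and 93 in GW4064.

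**Figure D2:**
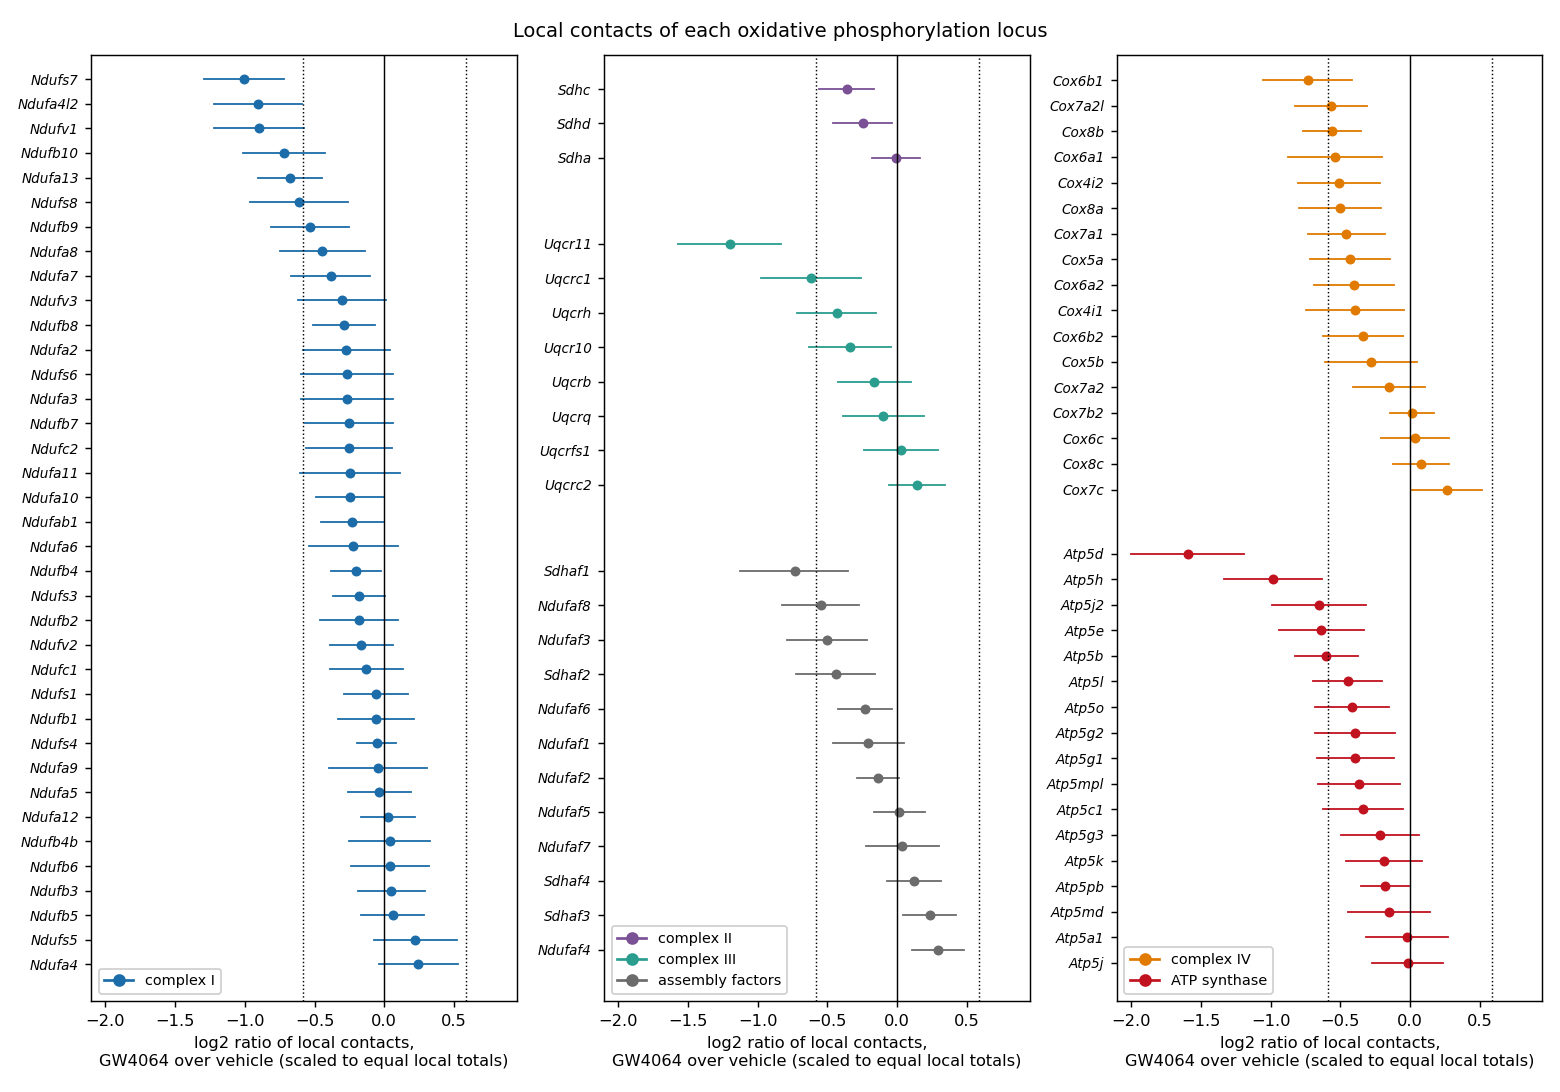
Log2 ratio of local contacts (GW4064 over vehicle, scaled to equal local totals) of 94 of the 95 members with at least 200 contacts, with 95% counting intervals, by complex. Dotted lines mark 1.5-fold, and Atp5d at -1.59, Uqcr11 at -1.20 and Ndufs7 at -1.01 lie farthest to the left.

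In complex I, the NADH dehydrogenase, 6 of 38 loci were called lower and the median log2 ratio was -0.24. The lowest was Ndufs7, with 244 local contacts in vehicle and 173 in GW4064 and a log2 ratio of -1.01 (-1.29 to -0.72). Ndufv1, the subunit that binds NADH and FMN, had 186 and 142 contacts and a log2 ratio of -0.90 (-1.22 to -0.58). Ndufa4l2, a paralog of Ndufa4 induced by low oxygen, had 196 and 149 contacts, and its log2 ratio was also -0.90. The other called loci were Ndufb10 (-0.72) and Ndufa13 (-0.68), both accessory subunits, and Ndufs8 (-0.61), an iron-sulfur subunit that neighbours Ndufv1 on chromosome 19.

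Other subunits of complex I ranged widely. Ndufs1, the largest iron-sulfur subunit, had 273 and 372 and a log2 ratio of -0.06 (-0.29 to 0.17). The highest locus was Ndufa4, now usually counted with complex IV, with 168 contacts in vehicle and 283 in GW4064, or 0.24 (-0.04 to 0.53). The intervals of Ndufs7 and Ndufa4 are far apart, while those of Ndufs1 and Ndufa4 overlap.

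In complex II, succinate dehydrogenase, 0 of 3 loci were called. Sdha, the flavoprotein that oxidises succinate, had 466 contacts in vehicle and 660 in GW4064, a log2 ratio of -0.01 (-0.18 to 0.17). The membrane anchors Sdhc and Sdhd had 400 and 443, and 341 and 409, with log2 ratios of -0.36 (-0.56 to -0.16) and -0.25 (-0.46 to -0.04), and within the bin Sdhd had 0.06. The intervals of Sdha and Sdhc meet only at their edges.

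In complex III, the cytochrome c reductase, 2 of 8 loci were called lower and the median log2 ratio was -0.25. Uqcr11 had 163 contacts in vehicle and 101 in GW4064, a log2 ratio of -1.20 (-1.57 to -0.83). The local intervals of the core proteins did not overlap, since Uqcrc1 had 137 and 127 contacts with -0.62 (-0.98 to -0.26), whereas Uqcrc2 had 341 and 535 with 0.14 (-0.06 to 0.34). Against loci of equal gene density Uqcrc1 lay at -0.17 (-0.53 to 0.19), an interval that includes 0, while Uqcrc2 lay above such loci. Within the bin the order was the reverse, at -0.03 for Uqcrc1 and -0.26 for Uqcrc2, and over all contacts Uqcrc2 had -0.18. Uqcrfs1, the Rieske iron-sulfur protein, had 201 and 292 contacts and a log2 ratio of 0.03 (-0.24 to 0.30).

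In complex IV, cytochrome c oxidase, 1 of 17 loci was called lower although the median log2 ratio was -0.40. The called locus was Cox6b1, with 180 contacts in vehicle and 154 in GW4064 and -0.73 (-1.05 to -0.42). The highest was Cox7c, a small membrane subunit, with 207 and 354 contacts and 0.26 (0.01 to 0.52). Between them, Cox5a had 201 and 212 contacts (-0.43) and Cox5b 144 and 169 (-0.28), and these intervals overlap.

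Several subunits of complex IV come as a form used in liver and a form restricted to muscle, lung or testis, and the intervals of most pairs overlapped. Cox4i1 had 133 contacts in vehicle and 144 in GW4064 (-0.39, -0.74 to -0.04), and the lung form Cox4i2 had 192 in each library (-0.51, -0.81 to -0.21). Cox6a1 and the muscle form Cox6a2 had log2 ratios of -0.54 and -0.40, and Cox6b1 and the testis form Cox6b2 had -0.73 and -0.34. Cox7a2, the liver form, had -0.15 (-0.41 to 0.11), the muscle form Cox7a1 had -0.46 (-0.73 to -0.18), and Cox7a2l, which helps join complexes III and IV, had -0.57 (-0.83 to -0.31). Cox8a had -0.50 and the muscle form Cox8b -0.56, while the testis form Cox8c had 0.08 (-0.13 to 0.28), an interval clear of that of Cox8a (-0.80 to -0.20). Over the 7 restricted isoforms 0 were called and the median was -0.40. Over the 10 other loci of complex IV 1 was called and the median was -0.41. The median differences from loci of equal gene density were -0.02 and -0.14.

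ATP synthase had the largest share of called loci among the complexes, 5 of 17, beside 9.3% of all loci. Its median log2 ratio was -0.39 and its pooled ratio -0.38 (-0.44 to -0.32). Atp5d had 165 contacts in vehicle and 78 in GW4064, a log2 ratio of -1.59 (-1.998 to -1.19), the lowest of all 16264 loci. Atp5h, the d subunit of the peripheral stalk, had 165 and 119 contacts and -0.98 (-1.33 to -0.63). Without Atp5d, 4 of 16 were called, beside 2 of 8 in complex III. The called loci of complex III include Uqcr11, from the same stretch of chromosome 10 as Atp5d, so these 2 shares are not ranked. The pooled ratio of ATP synthase without Atp5d was -0.34 (-0.41 to -0.28).

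The beta and alpha subunits of ATP synthase differed in local contacts. Atp5b, the beta subunit, had 332 contacts in vehicle and 312 in GW4064 and was called lower at -0.60 (-0.83 to -0.37), while Atp5a1, the alpha subunit, had 167 and 234 and -0.02 (-0.31 to 0.27). Against loci of equal gene density Atp5b lay at -0.15 (-0.38 to 0.07), an interval that includes 0. Within the bin the log2 ratios of Atp5b and Atp5a1 were -0.35 and -0.41, and over all contacts -0.31 and -0.28. Atp5e, the epsilon subunit of the central stalk, had 192 and 176 (-0.63), and Atp5j2, the f subunit in the membrane, had 157 and 142 (-0.65), both called lower, although within the bin Atp5e had 0.10. The 3 genes of the c ring, which encode the same mature protein, had overlapping intervals, with -0.39 for Atp5g1, -0.40 for Atp5g2 and -0.22 for Atp5g3. Atp5j, whose promoter is shown above, had 224 and 315 contacts and the highest ratio of the complex, -0.02 (-0.27 to 0.24).

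Assembly factors had 1 called locus of 12, a median of -0.17 and a pooled ratio of -0.07. The called locus was Sdhaf1, which helps place iron-sulfur clusters in Sdhb, with 124 contacts in vehicle and 106 in GW4064 (-0.74, -1.12 to -0.35). Ndufaf4 had 378 and 659 contacts and the highest ratio of all members, 0.29 (0.11 to 0.48), but -0.03 within the bin and 0.10 over all contacts. Sdhaf3, which acts in the same step as Sdhaf1, had 372 and 622 and 0.23 (0.04 to 0.42), and -0.10 within the bin.

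Called members concentrated where genes are dense. Gene density was the number of protein-coding genes in the 21 bins around a locus, and loci were split into 10 classes. In the densest class, with 39 to 75 genes, 12 of 19 members were called lower, beside 32.5% of all loci of that class, and the median log2 ratio was -0.62 in members and -0.45 in the other loci. Outside it 3 of 76 members were called, namely Ndufa13, Atp5j2 and Atp5e, with 38, 21 and 10 genes around them, and this share (3.95%) was below the 6.77% of all loci outside the class. Over the 95 members the ratio correlated with density at r = -0.79 (Pearson) and rho = -0.74 (Spearman), and over 16169 other loci at -0.42 and -0.44. These loci share libraries, depth and, in part, neighbourhoods, so the correlations are given as a description.

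Neighbouring members are not independent of each other. Atp5d, Ndufs7 and Uqcr11 lie together in chr10:80100001-80450000, and all 8 other protein-coding loci of that stretch were also called lower, with log2 ratios from -1.38 to -0.87. Loci are sets of bins that can overlap, and part of these 8 share bins, and so counts, with the members. The low values of the 3 members are thus not separate from those of the loci around them. Without them 12 of 92 members were called, 9 of 16 in the densest class, and the Pearson r with density was -0.73. Ndufs8 with Ndufv1 on chromosome 19, Ndufa4l2 with Atp5b on chromosome 10 and Sdhaf1 with Cox6b1 on chromosome 7 are further called neighbours.

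**Figure D3:**
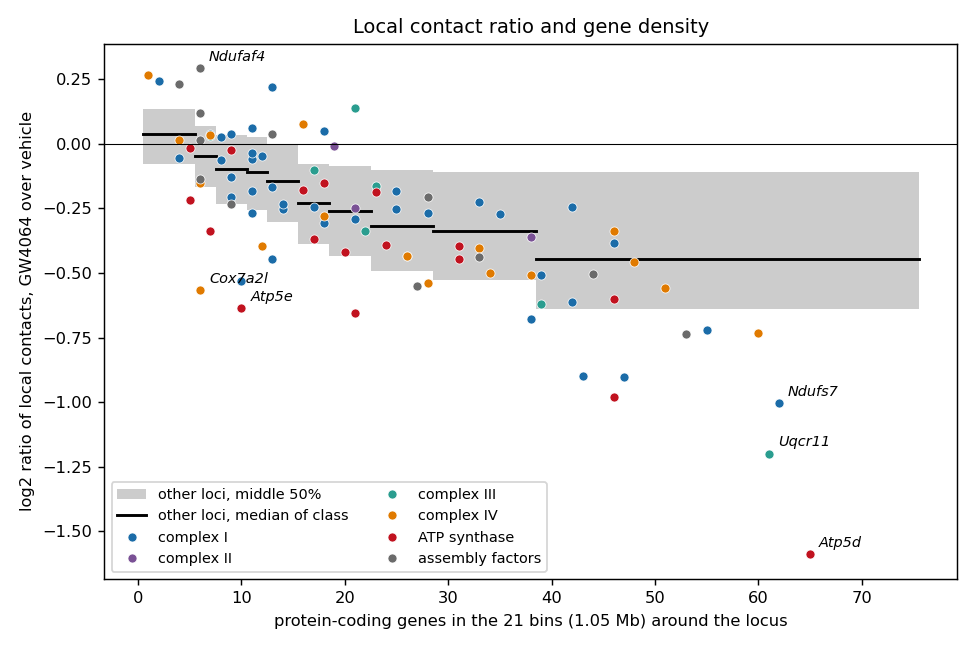
Log2 ratio of local contacts of each member (points coloured by complex) against the number of protein-coding genes in the 21 bins around it, with the median (line) and middle 50% (grey) of the other loci in each of 10 density classes. Members follow the downward steps of the other loci, and the points near Ndufs7, Uqcr11 and Atp5d lie below the grey band.

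Set against loci of the same density class, members lay slightly lower. Each member minus the median of the other loci in its class gave a median of -0.06, with 57 members below and 38 above. The interval lay entirely below the class median for 12 members and entirely above it for 7, which are 12.6% and 7.37% of 95, beside 15.4% and 17.0% of other loci. By complex the median was -0.02 for complex I, 0.01 for complex II, 0.00 for complex III, -0.11 for complex IV, -0.14 for ATP synthase and 0.00 for assembly factors. Of the members called lower, Ndufb10, Ndufs8, Uqcrc1, Cox6b1, Atp5b and Sdhaf1 had intervals that included the median of their class. Atp5e and Cox7a2l lay below their classes in regions of few genes, by -0.54 and -0.52, and Uqcrc2 lay above its class by 0.40.

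By distance, ATP synthase loci, with Atp5d included, lay below loci of equal density with intervals clear of 0 in 5 of 9 bands. Other loci were weighted to the density classes of each set, and all 97 members stayed within -0.07 and 0.01 of them in every distance band. At 100 to 200 kb, ATP synthase loci had 1145 contacts in vehicle and 1164 in GW4064, which is -0.32 (-0.44 to -0.20) against their matched loci, and -0.29 without Atp5d. At over 10 Mb they had 2641 and 2591 contacts and a difference of -0.20 (-0.28 to -0.12), with or without Atp5d. The same-bin difference was -0.10 (-0.18 to -0.01), that at 250 to 500 kb -0.18 (-0.32 to -0.05) and that at 2 to 10 Mb -0.12 (-0.24 to -0.0025). Without Atp5d these were -0.09 (-0.17 to 0.0003), -0.16 (-0.30 to -0.02) and -0.10 (-0.22 to 0.02). The same-bin interval and that at 2 to 10 Mb then included 0. Assembly factors went the other way at 100 to 200 kb, with 1110 and 1682 contacts and 0.17 (0.06 to 0.28), and 0.12 (0.01 to 0.24) without Ndufaf4. Complex IV also lay above its matched loci at 2 to 10 Mb, by 0.13 (0.03 to 0.24). Complex I lay below within the bin, by -0.08 (-0.13 to -0.03), and over 10 Mb, by -0.06 (-0.10 to -0.01). For the summed contacts of all 97 members, the interval of this difference was below 0 within the bin, at 250 to 500 kb and over 10 Mb. With other chromosomes the difference was 0.01 for ATP synthase and -0.01 for all members. The intervals cover counting error and not the spread between loci.

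**Figure D4:**
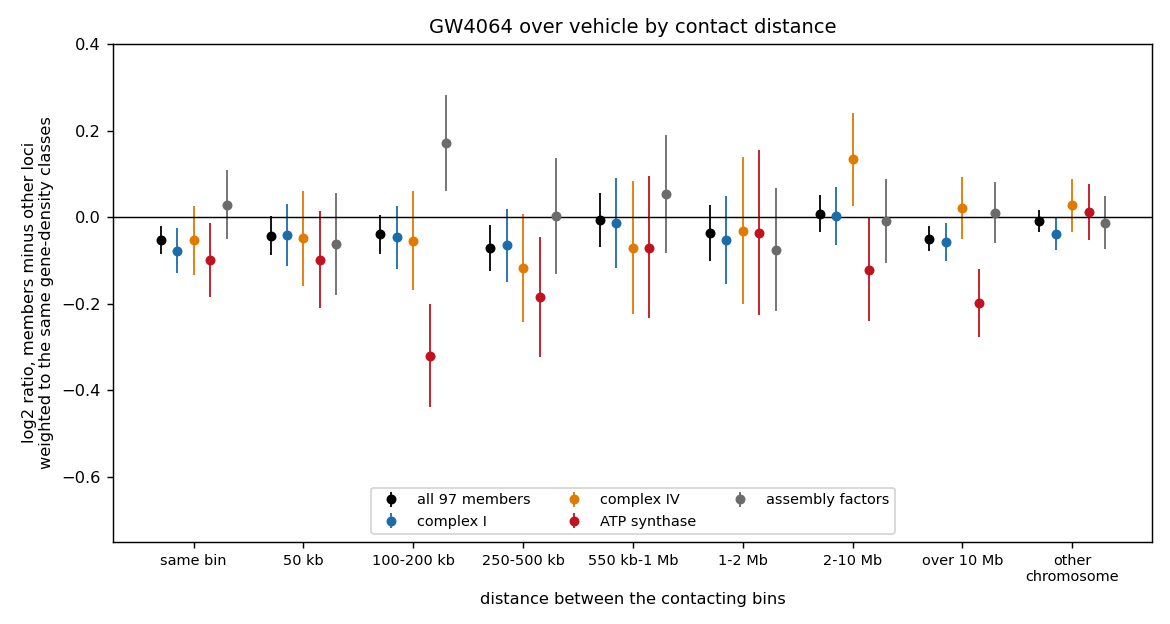
Log2 ratio of contacts (GW4064 over vehicle) of the member sets minus that of other loci weighted to the same gene-density classes, by distance between the contacting bins, with 95% counting intervals. ATP synthase lies lowest at 100 to 200 kb (-0.32) and over 10 Mb (-0.20), and the assembly factors lie highest at 100 to 200 kb (0.17).

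By contact class, the shares of members shifted much as those of matched loci did. Same-bin contacts were 14.7% of all member contacts in vehicle and 15.9% in GW4064, local contacts 24.8% and 27.2%, contacts over 1 Mb on the chromosome 32.3% in both, and contacts with other chromosomes 28.2% and 24.6%. Density-matched other loci had 15.01% and 16.5%, 22.6% and 24.97%, 33.5% and 33.7%, and 28.9% and 24.8%. Within a bin 15 members (15.8%) were called lower, beside 8.37% of loci, and 8 of the 15 called by local contacts were among them. Over 1 Mb it was 13 (13.7%), beside 6.46%, and between chromosomes 2 (2.11%), beside 1.19%. Over all contacts it was 9 (9.47%), beside 4.02%. Atp5d was low in each class, with log2 ratios of -1.03 within the bin, -1.10 over 1 Mb and -0.76 between chromosomes.

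Members were more often in the gene-rich compartment than loci of equal density. The compartment was read from the first eigenvector at 250 kb, and 78 of 95 members (82.1%) were on the gene-rich side in vehicle and 79 (83.2%) in GW4064. Other loci weighted to the same density classes had 70.3% and 68.6%. The 17 members on the gene-poor side in vehicle, among them Cox7c, Ndufaf4, Sdhaf3 and Ndufa4, had a median log2 ratio of 0.02, and the 78 on the gene-rich side had -0.34. All loci showed the same order, with 0.05 and -0.27. An insulation minimum lay in or next to the locus for 34.7% of members in vehicle and 42.1% in GW4064, beside 31.2% and 32.2% of weighted other loci.

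Members on different chromosomes contacted each other rarely. The 4405 pairs had 49 contacts in vehicle and 64 in GW4064, over 110 pairs, and no pair had more than 2 over both libraries. The number expected from the contacts of each bin with the other chromosome was 36.5 and 32.5, so observed over expected was 1.34 (0.99 to 1.77) and 1.97 (1.52 to 2.51). Bin pairs of the same density classes were themselves above expectation, and with density and compartment in the expected number the ratios were 1.02 (0.76 to 1.35) and 1.40 (1.08 to 1.79). The GW4064 value over the vehicle value was then 1.37 (0.93 to 2.03), an interval that includes 1.

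Relative to expectation, contacts within a complex were not more frequent than contacts between complexes. Pairs within a complex had 9 contacts in vehicle and 12 in GW4064, for 7.75 and 6.58 expected from coverage. Structural subunits of different complexes had 28 and 34, for 17.7 and 16.0 expected. Complex I with ATP synthase had 7 and 13 contacts for 4.30 and 3.93 expected, which with density and compartment is 1.19 (0.48 to 2.46) and 2.17 (1.16 to 3.71). That pairing was 1 of 12 sets of pairs examined and rests on 13 contacts.

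**Figure D5:**
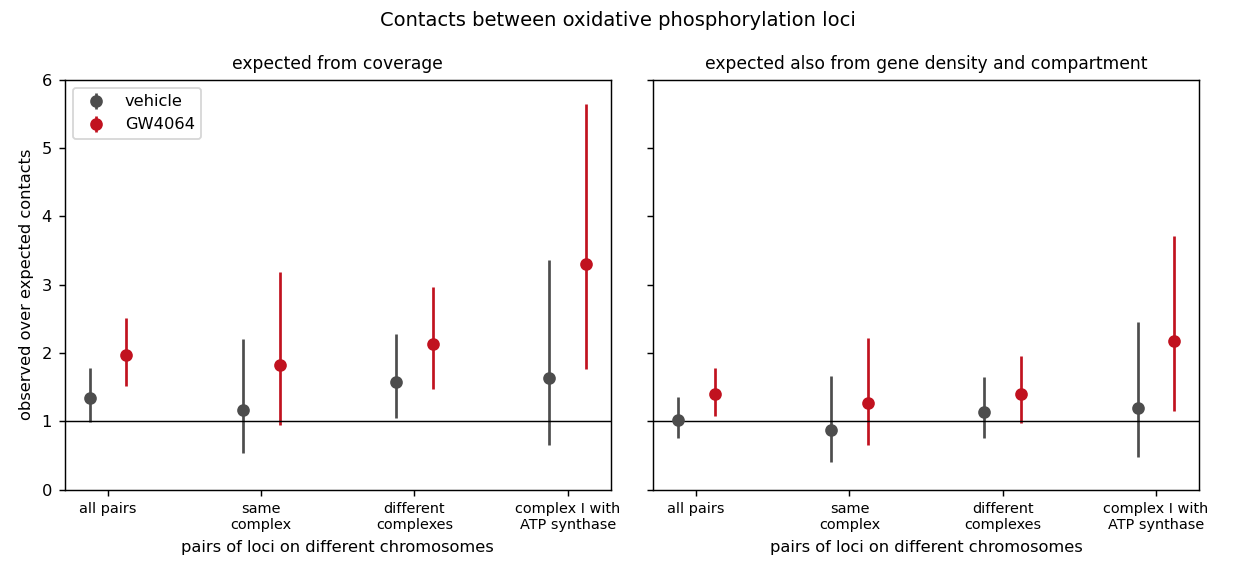
Observed over expected contacts between member loci on different chromosomes in vehicle (grey) and GW4064 (red), with exact Poisson 95% intervals, expected from coverage (left) or also from gene density and compartment (right). For all pairs GW4064 falls from 1.97 on the left to 1.40 on the right, and vehicle from 1.34 to 1.02.

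On the same chromosome, 14 pairs of members lay within 2 Mb of each other. Ndufs8 and Ndufv1, both of complex I, had 16 contacts in vehicle and 14 in GW4064, which is 2.05 (1.17 to 3.33) and 3.58 (1.96 to 6.01) times the number expected from distance and local coverage. Atp5d and Ndufs7 had 14 and 8 contacts (1.33 and 3.09 times). The expected number is a product of the local contacts of both bins, so it falls where these are low, and the 2 libraries are not compared on this ratio.

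A bin pair was counted as enriched when it lay 100 kb to 2 Mb apart and held, in both libraries, 10 or more contacts and 2 or more times the expected number. Such pairs were found at 52 of 97 members (53.6%) and at 48.5% of all loci. Among members inside 1 bin it was 34 of 69 (49.3%), beside 34.7% of other loci inside 1 bin weighted to the same density classes. The strongest joined the bin of Cox4i1 (chr8:120650001-120700000) to that of Irf8, an interferon regulatory factor of myeloid cells, 100 kb away, with 19 contacts in vehicle and 26 in GW4064 and 6.40 times the expected number over both. The bin of Ndufb6, an accessory subunit of complex I, contacted that of Aptx, a DNA repair gene, 400 kb away with 16 and 19 contacts (6.30 times). The bin of Atp5o, the stalk subunit that confers oligomycin sensitivity, contacted that of Kcne2, a potassium channel subunit gene, 350 kb away with 23 and 11 contacts (5.39 times). The bin of Ndufa8, an accessory subunit of complex I, contacted 2 neighbouring bins of Ptgs1, the cyclooxygenase 1 gene, with 24 and 14 contacts at 250 kb and 25 and 17 at 200 kb.

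Contacts with mitochondrial DNA, which encodes the remaining subunits, were few. Member bins had 91 in vehicle and 76 in GW4064, or 9.56 (7.70 to 11.7) and 7.18 (5.66 to 8.99) per 10000 contacts, beside 7.28 and 5.61 over all protein-coding loci. No member had more than 4 in a library. The comparison was not matched on gene density, and the source of these contacts was not tested.

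Other genes of the pathway, outside the symbol rule, had values near those of the members. Of 65 listed genes 63 could be used, since Slc25a5 is not on an autosome and Polrmt had under 200 local contacts. Among them 10 of 63 were called lower, beside 9.3% of all loci, and 0 higher. The median log2 ratio was -0.28, and the median difference from the density class was -0.11. Lists outside the pathway were as low or lower, at -0.42 and -0.26 for the 12 hepatocyte genes, with 2 called, and -0.40 and -0.11 for the 12 genes not expressed in liver, with 3 called. Cyc1, the cytochrome c1 of complex III, had 171 contacts in vehicle and 133 in GW4064 (-0.87), and Surf1, a complex IV assembly factor, had 180 and 133 (-0.95). Twnk, the mitochondrial DNA helicase, had -0.73, and Cs, the citrate synthase of the citric acid cycle, had -0.59. Cycs, cytochrome c itself, had 180 and 255 contacts (-0.01).

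Regulators of transcription in the pathway with at least 200 local contacts were not called. Ppargc1a, the gene of PGC-1 alpha, had a log2 ratio of -0.03 (-0.11 to 0.04), Gabpa -0.09 and Tfam, which packages mitochondrial DNA, -0.13. Nrf1 had -0.25 (-0.40 to -0.11), the nuclear receptor gene Esrra -0.51 (-0.86 to -0.16) and Ppargc1b -0.52 (-0.68 to -0.36), all under the 1.5-fold limit. Polrmt, which is under the minimum of contacts, had 87 in vehicle and 74 in GW4064 and -0.74 (-1.21 to -0.28). Members whose promoter held NRF1, ETS or YY1 letters had a median log2 ratio of -0.25 (45 loci), and members without them -0.25 (33 loci). For single motifs the medians were -0.44 with ETS letters (6 of 21 called) and -0.24 without (8 of 57). Median densities were 27 and 14 genes. With the open NRF1 form the median was -0.22 (2 of 21) and without it -0.28 (12 of 57), at 13 and 21 genes. Over all loci 9.3% were called. Median differences from the density class were -0.11 with and -0.05 without ETS letters, and 0.01 with and -0.07 without the open NRF1 form.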

How the data were processed

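Foxa2 HiChIP of mouse liver was deposited as contact counts between bins of 50 kb, 1 library per group. The submitters' processing notes name HiC-Pro, Bowtie2 2.2.9 and mm10, without filters. The tables deposited by the authors hold whole-number counts that are not normalised, so coverage, mappability and antibody enrichment stay in every value. Bin numbers, another value of the deposited tables, only index positions.

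Gene positions came from RefSeq (GRCm38.p6, the same coordinates as mm10). Contacts were summed over the bins of each gene with Python 3.11.15, numpy 2.4.6, pandas 2.3.3 and scipy 1.17.1, in classes by distance. With 1 library per group there was no test, and intervals (95%) cover counting error only. The calculations were tested on simulated data. Named genes were the highest, the lowest and the most contacted locus of each complex and a list of core subunits and isoforms, and the 5 strongest bin pairs. Genes named beyond these, such as other called loci and pathway genes, were chosen after their values were seen. The members and lists were chosen with earlier results of these data known. Alternatives were another scaling, contact class, call, minimum, window and locus definition. Results for some listed genes are not reported here.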

Additional observations from a re-analysis of the deposited data

How the results depend on the processing

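No paired analysis was possible because each group is 1 library, and for the same reason no replicate could be left out. The count of members called lower, 15 of 95, was 6 with scaling to all contacts (3.22% of all loci) and 9 for all contacts of the bin (4.02%). It was 2 between chromosomes (1.19%), 48 by the interval alone (40%) and 41 with a limit of a 25% difference (29.3%). With a minimum of 400 local contacts it was 3 of 64, under the 6.23% of all loci. The count called higher, 0, was 3 by the interval alone. The member median of -0.25 was -0.10 with scaling to all contacts, -0.29 within a bin, -0.29 for all contacts, -0.12 between chromosomes, -0.18 with a minimum of 400 and -0.34 for genes inside 1 bin. The median difference from the density class, -0.06, was -0.083 within a bin, -0.0080 for all contacts, -0.11 for genes inside 1 bin and turned to 0.0034 between chromosomes. Observed over expected contacts between chromosomes in GW4064 fell from 1.97 to 1.40 with density and compartment in the expected number, an alternative chosen after seeing the data, as was leaving out the 3 loci on chromosome 10. A minimum of 400 removes loci with few contacts, and the cause of the other shifts was not tested. Over 160 values of named loci under other settings, 139 stayed inside the interval of the local ratio and 21 did not. The sign changed in 21 of the 160, and 4 of these also left the interval, namely Ndufaf4 (-0.03), Sdhd (0.06) and Uqcrc2 (-0.26) within a bin and Uqcrc2 (-0.18) over all contacts. At 200 contacts per locus, differences well under 1.5-fold were not detectable.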
